A study of Drosophila melanogaster with 16 samples.

Results

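Mitochondria carry their own ribosomes, which translate the few proteins encoded by the mitochondrial genome, all of them core components of the respiratory chain and of ATP synthase. The protein part of these ribosomes is encoded in the nucleus, made in the cytosol and imported. Some of the proteins descend from those of the bacterial ribosome, and others were added in the mitochondrial lineage. The genes described here are those whose symbol begins with mRpL (large subunit) or mRpS (small subunit). The array read 64 such genes, out of 10844 genes named on it. Membership was set by symbol, though the symbols were chosen with earlier results of these data known. Each gene was represented by the probe set with the highest mean where it had several, which was the case for mRpL11 and mRpL12. By symbol, 43 belong to the large and 21 to the small subunit, although in mammals the proteins named S18A and S30 sit in the large subunit. By a rule on protein number alone, 38 were counted as having a bacterial counterpart and 26 as of mitochondria only. Homology was not checked protein by protein, so the rule may misplace single genes. The genes are scattered over the genome, with 10 on chromosome arm 2L, 10 on 2R, 16 on 3L, 18 on 3R and 10 on X.

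Transcripts were measured with Affymetrix Drosophila arrays on RNA from stage 11 embryos, the stage at which the neuroectoderm gives rise to neural precursors. Sorted gcm and sorted control arrays read neuroectodermal cells that carried the membrane marker mCD8-GFP and were pulled out of dissociated embryos with anti-mCD8 magnetic beads. Whole gcm and whole control arrays read intact embryos. The gcm embryos, labelled scagcm, overexpressed glide/gcm, the transcription factor that starts glial fate, whereas the control embryos were wild type apart from the marker. The labels do not spell out the prefix sca, which is also the symbol of scabrous, a gene expressed in the neuroectoderm, and they state neither the driver of the marker nor whether whole embryos carried it. Each group has 4 arrays by its labels, but the arrays labelled sorted gcm 2 and sorted gcm 3 held the same value in all 14010 probe sets and were counted as 1 array, called sorted gcm 2 below. The labels do not state whether the replicates of a group are separate collections of embryos. The p-values reflect only how far arrays vary within groups. That spread was pooled over all 4 groups for each probe set and drawn toward that of other probe sets of like intensity.

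The array labelled whole control 3 went against its label. The level of gcm on it was 13.10, within the 13.01 to 13.13 of the sorted gcm arrays and far above the 8.07 to 8.66 of the remaining whole controls, and repo, a glial target of gcm, stood at 10.77. Levels are log2 of the quantile-normalised intensity plus 16, so that an intensity of 16, near the bottom of the scale, is a level of 5. Its profile had a mean correlation of 0.931 with the sorted arrays and 0.690 with the other whole embryo arrays. On the grounds of gcm, repo and the whole profile, results are given from 14 arrays without it (3 sorted gcm, 4 sorted control, 4 whole gcm, 3 whole control), with the values from all 15 beside them. The mRp genes were no ground for this choice. As a description, 62 of the 64 were lower on this array than on every other whole embryo array, and 48 lay within the range of the sorted arrays. Trimmed mean intensities lay between 67.2 and 166.5, and precision is limited by the small number of arrays.

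The mRp genes split the arrays by preparation. Their median level was 5.84, 5.90 and 5.67 on the sorted gcm arrays and 5.86, 5.71, 5.59 and 5.40 on the sorted control arrays. It was 7.76, 7.84, 7.98 and 7.98 on the whole gcm arrays and 7.89, 7.87 and 8.45 on whole control arrays 1, 2 and 4. Every sorted array therefore lay below every whole embryo array, and the array labelled whole control 3, at 5.55, lay among the sorted ones. Between 16 and 25 of the 64 genes had a deposited intensity under 16 on each sorted array, and 20 did on the array labelled whole control 3, whereas none did on the other whole embryo arrays. The share of all probe sets under 16 did not divide the arrays in this way, with a mean of 31.7% ± 1.37 on sorted arrays and 31.9% ± 2.60 on whole embryo arrays (SD, n = 7 each).

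**Figure D1:**
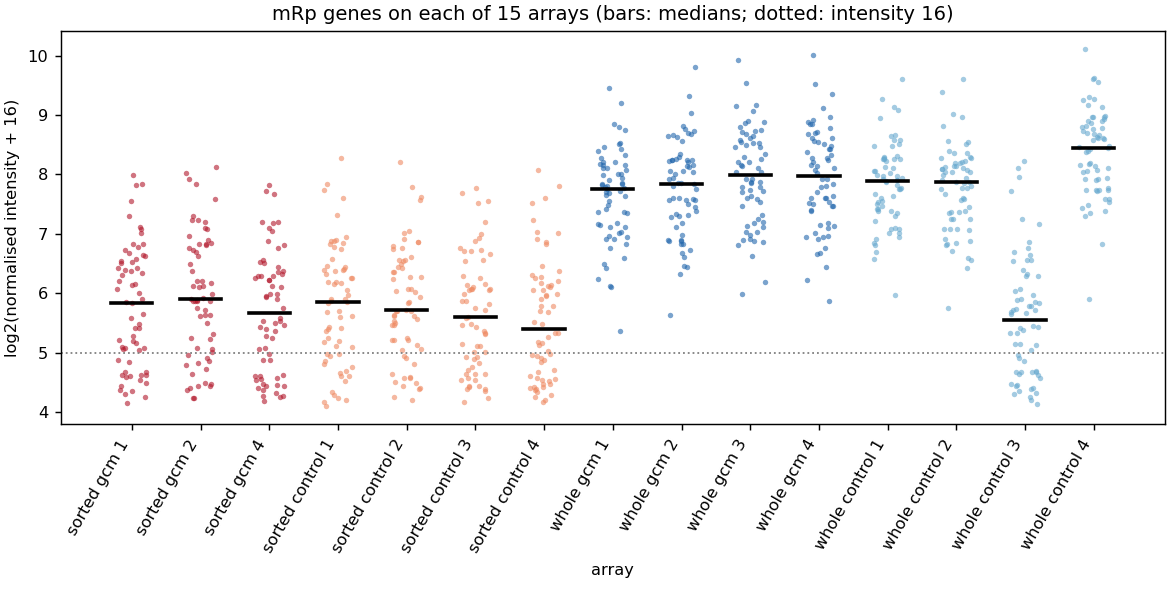
Levels of the 64 mRp genes, as log2 of the quantile-normalised intensity plus 16, on each of the 15 arrays. Points are genes, black bars are medians and the dotted line marks an intensity of 16; the sorted arrays have medians of 5.40 to 5.90 and the whole embryo arrays of 7.76 to 8.45, except for the array labelled whole control 3 at 5.55.

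In gcm embryos, transcripts of the mitochondrial ribosome were lower in sorted cells than in whole embryos almost without exception. Of the 64 genes, 60 fell and 0 rose at a Benjamini-Hochberg adjusted p under 0.05 in limma, against a background of 20.9% of all 13966 probe sets called lower and 24.7% called higher. The median log2 change was -1.98, a 3.94-fold fall, with 63 changes negative, beside a median of 0.06 over all probe sets. In 61 genes (95.3%) every sorted gcm array was below every whole gcm array, which held for 23.4% of all probe sets. With all 15 arrays the count was 56, against a background of 17.4%, and the median -1.96. In bulk RNA such as this, fewer cells of a type and less RNA per cell cannot be told apart.

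Transcripts of the mitochondrial ribosome were also low in sorted control cells. Against whole control embryos, 61 of 64 genes fell and 0 rose, against a background of 21.4% of probe sets called lower and 24.9% called higher. The median change was -2.19, a 4.56-fold fall, and all 64 changes were negative, beside a median of 0.07 over all probe sets. In 62 genes (96.9%) every sorted control array lay below every whole control array, against 22.6% of all probe sets. With the array labelled whole control 3 kept, 53 genes fell against a background of 13.3%, the median was -1.63, and the groups were apart for 6 genes, or 9.38%, against 4.8% of all probe sets. The control and gcm comparisons share no array. They do share the normalisation and the pooled variance of each probe set, so their calls are not independent. Of the 64 genes, 59 were called in both, 1 in gcm alone, 2 in controls alone and 2 in neither. Across the 64 genes the 2 sets of changes had a Pearson correlation of 0.91, beside 0.92 over all probe sets.

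**Figure D2:**
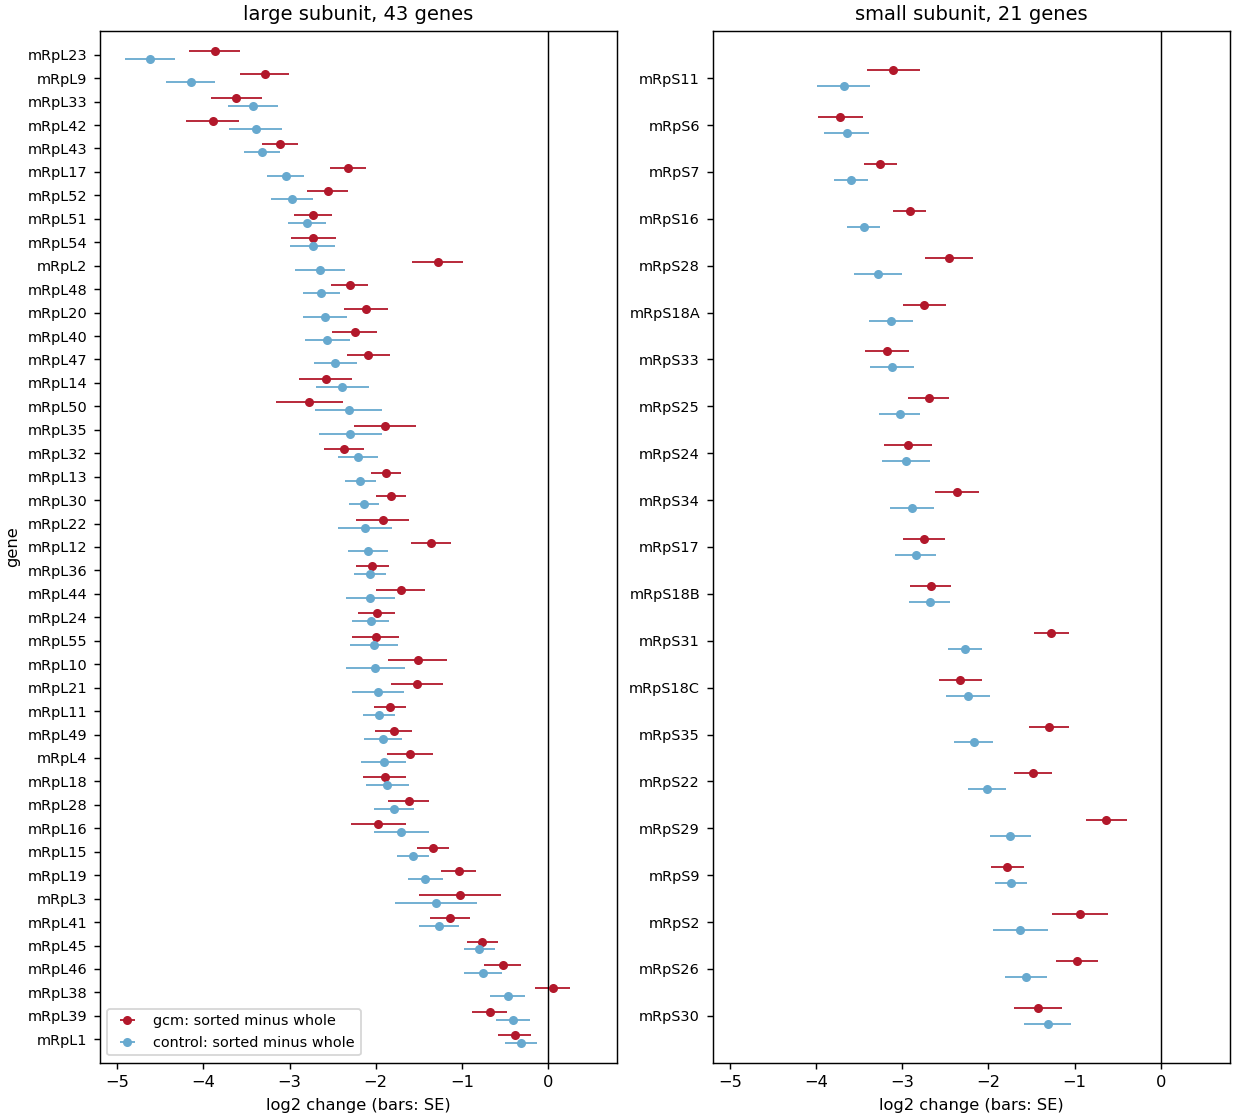
Log2 change, sorted minus whole, of each mRp gene in gcm (red) and in control embryos (blue), with the large subunit on the left and the small subunit on the right, ordered by the change in controls. Points are limma estimates from 14 arrays and bars are their SE; only mRpL38 in gcm lies above 0, at 0.05.

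Among small-subunit genes, all 21 fell in both comparisons, with a median of -2.46 in gcm and -2.85 in controls. mRpS7, whose bacterial counterpart binds ribosomal RNA early in assembly of the small subunit, had normalised intensities of 80.3, 93.2 and 66.9 in sorted gcm cells and 41.0, 66.9, 55.4 and 72.8 in sorted control cells. Its intensities were 702, 903, 983 and 1033 in whole gcm embryos and 776, 783 and 1113 in whole control embryos. No sorted array came near any whole embryo array, and among sorted arrays the gcm and control values overlapped. The log2 change of mRpS7 was -3.25 in gcm (SE 0.19, limma adjusted p = 2.46e-09) and -3.60 in controls (SE 0.19, adjusted p = 6.71e-10), the smallest p of any mRp gene in each. mRpS16, another assembly protein of the small subunit, had intensities of 48.7, 56.6 and 47.3 in sorted gcm cells and 35.8, 45.3, 31.8 and 53.1 in sorted control cells. In whole gcm embryos it had 438, 407, 572 and 552, and in whole control embryos 556, 511 and 779. Its sorted and whole values were again far apart, and the changes were -2.91 in gcm and -3.45 in controls. The largest falls of this subunit in controls were those of mRpS11 (-3.68) and mRpS6 (-3.64), whose mean intensities in sorted control cells were 24.9 and 13.6, against 490.0 and 343 in whole control embryos. In gcm mRpS11 changed by -3.10 and mRpS6 by -3.72, and mRpS33, found only in mitochondrial ribosomes, by -3.17.

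The large subunit held the deepest falls and also all genes that did not pass the test. In gcm 39 of 43 fell, with a median of -1.90, and in controls 40 of 43 fell, with a median of -2.09. The deepest fall in controls was that of mRpL23, whose bacterial counterpart lines the exit of the tunnel through which the new protein leaves. Its intensities were 9.52, 44.1 and 4.01 in sorted gcm cells and 9.01, 7.59, 14.3 and 5.36 in sorted control cells. They were 420.0, 403, 467 and 479 in whole gcm embryos and 540.3, 493 and 788 in whole control embryos. All but 1 of the 7 sorted values, that of sorted gcm 2, were under 16. The change of mRpL23 was -3.87 in gcm (SE 0.29, limma adjusted p = 3.15e-08) and -4.62 in controls (SE 0.29, adjusted p = 4.02e-09). On this scale the change of a gene near the bottom depends on the added 16, and the fold is understated.

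mRpL42, a large-subunit protein without a bacterial counterpart, had the deepest fall in gcm, by 3.89 on the log2 scale (SE 0.31, limma adjusted p = 4.77e-08). Its intensities were 17.6, 8.73 and 7.71 in sorted gcm cells, against 247, 426, 460.0 and 452 in whole gcm embryos. In sorted control cells they were 32.9, 27.9, 8.82 and 7.71, against 301, 253 and 493 in whole control embryos, a change of -3.39. Sorted and whole values were far apart in each genotype, while sorted gcm and sorted control values overlapped. The other deep falls of the large subunit were those of mRpL9 (-3.29 in gcm, -4.15 in controls), mRpL33 (-3.62 and -3.42) and mRpL43 (-3.11 and -3.32). mRpL43 lay between 2.26 and 8.31 on all 7 sorted arrays and between 157 and 274 on the 7 whole embryo arrays. In size, 9 genes were at least 8-fold lower in sorted than in whole gcm samples, 21 between 4- and 8-fold, 26 between 2- and 4-fold and 8 under 2-fold or not lower. In controls the corresponding counts were 14, 29, 16 and 5.

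**Figure D3:**
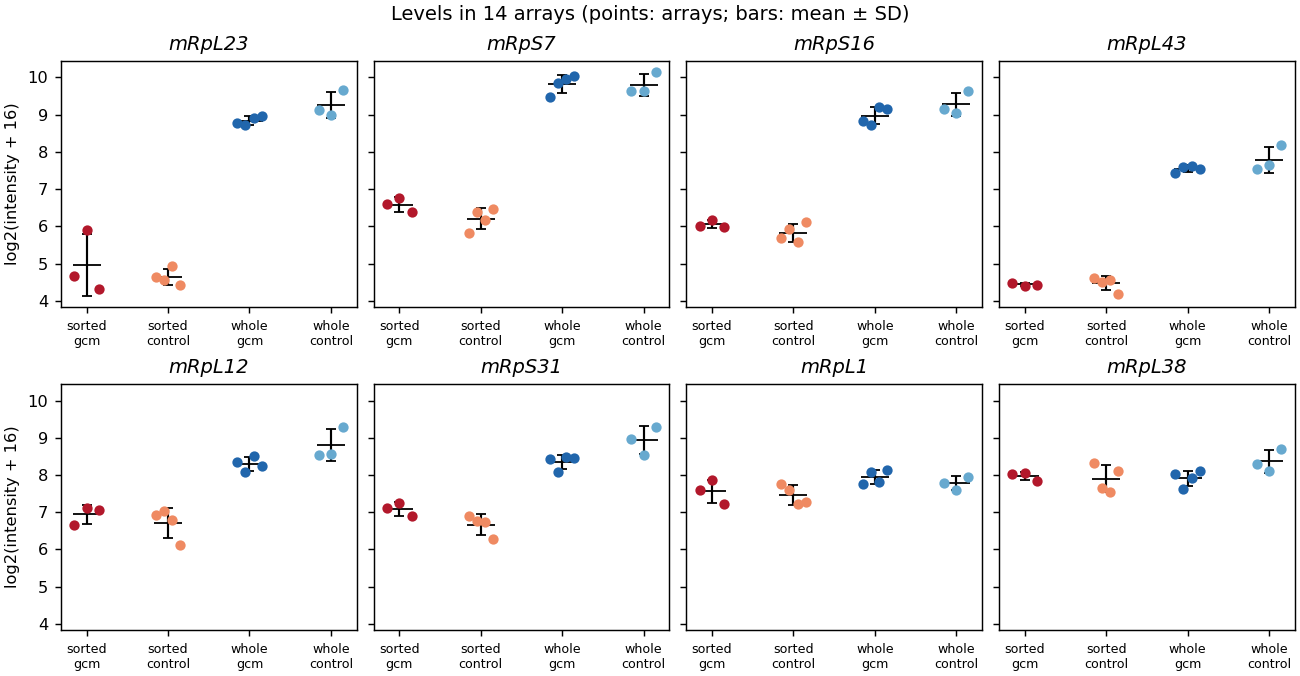
Levels of 8 mRp genes on the 14 arrays, as log2 of the normalised intensity plus 16, by group. Points are arrays and bars are mean and SD (n = 3 sorted gcm, 4 sorted control, 4 whole gcm, 3 whole control); the sorted values of mRpL23, mRpS7, mRpS16, mRpL43, mRpL12 and mRpS31 lie below all whole values, and those of mRpL1 and mRpL38 overlap them.

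The exceptions were few and all of the large subunit. mRpL1, whose bacterial counterpart forms the mobile stalk where spent transfer RNA leaves, had intensities of 176, 216 and 134 in sorted gcm cells and 202, 178, 133 and 137 in sorted control cells. It had 199, 254, 209 and 267 in whole gcm embryos and 204, 177 and 233 in whole control embryos. Sorted and whole values overlapped in each genotype, with changes of -0.39 in gcm (limma adjusted p = 0.109) and -0.31 in controls (adjusted p = 0.194). mRpL38, a protein of mitochondrial ribosomes only, had 244, 249 and 213 in sorted gcm cells, against 244, 183, 224 and 258 in whole gcm embryos. In sorted control cells it had 302, 185, 170.1 and 260, against 298, 260 and 402 in whole control embryos. Its groups overlapped too, and the changes were 0.05 in gcm (adjusted p = 0.849) and -0.47 in controls (adjusted p = 0.0696).

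mRpL39, also of mitochondria only, varied little among sorted cells, with intensities of 213, 231 and 198 in sorted gcm cells and 217, 209, 206 and 213 in sorted control cells. Whole gcm embryos had 274, 287, 416 and 465, and whole control embryos 224, 263 and 389.5. It fell in gcm by 0.68 on the log2 scale (limma adjusted p = 0.0106), and in controls, where the groups did not overlap either, the change was -0.40 (adjusted p = 0.111). mRpL46, another protein of mitochondria only, missed the threshold in gcm (-0.53, adjusted p = 0.0591) and was called in controls (-0.75, adjusted p = 0.00921). The fifth exception, mRpL3, was named after its values were seen. Its bacterial counterpart lies near the site of peptide bond formation, and it was the most variable mRp gene among sorted control cells, with intensities of 71.5, 70.3, 10.05 and 5.36. Its change was -1.02 in gcm (SE 0.47, adjusted p = 0.0926) and -1.30 in controls (SE 0.47, adjusted p = 0.0343).

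Both genes with more than 1 probe set gave unlike answers from their probe sets. For mRpL12, the protein of the stalk that recruits translation factors in bacteria, the brighter probe set fell by 1.36 on the log2 scale in gcm and by 2.09 in controls. The other was dim on all arrays, with levels between 4.62 and 6.31, and its changes were 0.71 in gcm (limma adjusted p = 0.125) and -0.12 in controls (adjusted p = 0.817). For mRpL11, of the base of that stalk in bacteria, the brighter probe set fell by 1.83 in gcm and by 1.96 in controls, while the other, at levels of 5.48 to 6.46, had changes of -0.14 in gcm (adjusted p = 0.646) and -0.41 in controls (adjusted p = 0.149). On sorted arrays the mRpL11 probe sets were alike, at levels of 5.43 to 5.996 (brighter) and 5.48 to 6.02 (other). The brighter one stood apart only on whole embryo arrays, at 7.398 to 7.86. Its choice by highest mean therefore rested on those arrays and favoured a fall, so the mRpL11 fall is not independent of that choice. Whether the dimmer probe sets read the same transcripts was not tested.

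In the 2 classes set by protein number the counts were alike. Of the genes counted as having a bacterial counterpart, 36 of 38 fell in gcm (median -1.98) and 37 of 38 in controls (median -2.19). Of those counted as of mitochondria only, 24 of 26 fell in each, with medians of -1.90 in gcm and -2.22 in controls. Median changes in controls by chromosome arm lay between -2.91 for the 10 genes on 2R and -2.02 for the 10 on X. The mRp genes are short, with a median genomic length of 909.5 bp, introns included, against 2385 bp over all genes in the release 6 annotation. Shorter mRp genes tended to lie lower in sorted cells, with a Spearman correlation between length and change of 0.62 in gcm and 0.52 in controls over 64 genes, against 0.32 and 0.35 over all 10803 genes with a length. Other short genes had smaller median changes, but they were not matched to the mRp genes in level. On whole embryo arrays a mean of 31.9% of all probe sets lay under an intensity of 16, where a fall can hardly show, and 0 mRp genes did. The part of gene length in the mRp changes was not tested. In controls, 37 mRp genes under 1 kb had a median change of -2.68 and all 37 fell, whereas 1452 other genes of that length had a median of -0.11 and 30.9% of them fell. Between 1 and 2 kb, 25 mRp genes had a median of -2.004 and 22 fell, against -0.17 and 35.5% of 3046 other genes. In gcm the medians under 1 kb were -2.56 for mRp genes and -0.12 for the other genes.

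Beside these falls, further measures differed between the preparations. The log2 ratio of the 3' to the 5' control probe sets of actin, a sign of RNA length, was 1.74 ± 0.21 on sorted arrays and 0.88 ± 0.26 on whole embryo arrays (SD, n = 7 each), without overlap. For eIF-4a it was 1.01 ± 0.12 and 1.10 ± 0.15. The summed intensity of the neuroectoderm and neuroblast markers, 10 measured of 12 listed, was 6985 to 8337 in sorted gcm cells and 7685 to 10618 in sorted control cells, against 2214 to 3946 in whole gcm and 2513 to 3883 in whole control embryos. Of these 10 markers, 5 rose and 3 fell in sorted control cells, the falls being those of mira, l(1)sc and SoxN. This and the marker counts that follow are to be read beside the shares over all probe sets. In controls 24.9% were called higher and 21.4% lower, and in gcm 24.7% and 20.9%. Neuron markers, 4 of 5 measured, summed to 1878 to 2208 in sorted gcm cells and 1483 to 3526 in sorted control cells, against 212 to 395 and 148 to 522 in whole gcm and whole control embryos. Of these 4 neuron markers, 2 rose and 0 fell in each genotype, and in gcm 1 change was negative. The sums therefore do not stand for every gene of the list. Glia markers, 4 of 5 measured (repo, moody, loco and gcm itself), rose without exception in both genotypes. They summed to 11336 to 13106 in sorted gcm and 3388 to 5517 in sorted control cells, against 1918 to 3168 in whole gcm and 539.6 to 833 in whole control embryos. These sums hold the overexpressed gene, whose level was 13.01 to 13.13 on the sorted gcm arrays, and are no measure of glial content alone. Of 5 measured mesoderm and muscle markers, 3 rose and 0 fell in each genotype (twi, htl and lmd), with sums of 1511 to 2583 in sorted gcm and 1199 to 2129 in sorted control cells, against 664 to 1037 in whole gcm and 1047 to 1166 in whole control embryos. No marker of these lists had a group mean at 0. Dim probe sets also read above 0 on these arrays, so this shows neither presence nor absence of a cell type. Germ cell and maternal markers, 8 of 9 measured, summed to 402 to 515 in sorted gcm and 471 to 559 in sorted control cells, against 740.4 to 1219 in whole gcm and 466 to 642 in whole control embryos. Of these 8, vas, tor, twe and bcd fell and zpg and gcl rose in gcm, whereas in controls tor, twe and bcd fell and gcl rose. Of 6 hemocyte and fat body markers, 0 rose and 1 fell in gcm and 1 rose and 1 fell in controls, and of 6 endoderm and yolk markers 3 rose and 1 fell in gcm and 1 rose and 1 fell in controls. The part of RNA length, cell makeup or maternal RNA in the low mRp levels was not tested.

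Overexpression of gcm in sorted cells moved no mRp gene past the threshold. Of 64 genes, 0 were called by limma, against a background of 0.773% of probe sets, and 6 had an unadjusted p under 0.05, as had 1482 of all 13966 probe sets. With all 15 arrays the background was 0.122% and 0 were called. The median change was 0.10, with 43 changes positive, beside -0.01 over all probe sets. By subunit, 18 of 21 changes were positive in the small subunit, with a median of 0.23, and 25 of 43 in the large subunit, with a median of 0.04. In 4 genes (6.25%) every sorted gcm array was above every sorted control array, against 4.64% of all probe sets.

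The highest estimate was that of mRpL2, whose bacterial counterpart sits next to the peptide-bond-forming centre. Its intensities were 54.5, 91.5 and 63.2 in sorted gcm cells and 15.3, 49.4, 50.3 and 14.9 in sorted control cells, and its change was 0.90 (SE 0.29, limma adjusted p = 0.227). The groups were apart, but 2 of the 4 control arrays were far below the others. mRpS28 had 67.8, 33.5 and 37.7 in sorted gcm cells and 20.4, 29.1, 8.73 and 18.8 in sorted control cells, a change of 0.81 (SE 0.28, adjusted p = 0.255). The other genes whose groups were apart were mRpS31 (0.42, adjusted p = 0.470) and mRpS22 (0.55, adjusted p = 0.374), the last named after its values were seen. mRpS11 had an estimate of 0.75 and mRpS29, known in mammals as the GTP-binding protein DAP3, 0.64, with overlapping groups. At the low end stood mRpL14 (-0.49), mRpL22 (-0.44), mRpL16 (-0.35) and mRpL50 (-0.35), each with overlapping groups and an adjusted p of 0.639 or more.

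In whole embryos gcm likewise gave 0 calls in limma among the 64 genes, against a background of 0.444%, with 4 genes at an unadjusted p under 0.05 and 1622 of all probe sets. The median change was -0.22, with 46 changes negative, beside -0.02 over all probe sets. In 10 genes (15.6%) every whole gcm array was below every whole control array, against 6.97% of all probe sets. This median rests on few control arrays. Without whole control 4, which had the highest mRp levels, it was -0.01 with 32 changes of each sign. With the array labelled whole control 3 kept it was 0.39, with 59 changes positive, and the count was again 0, against a background of 0.0573%. With that array, every whole gcm array was below every whole control array in 1 gene (1.56%), against 2.99% of all probe sets. Of 8 germ cell and maternal markers, 3 rose here (bcd, tor and twe) and 0 fell, with 4 changes of each sign and a median of 0.15. Their summed intensity averaged 950.4 ± 202 in whole gcm (SD, n = 4) and 539 ± 91.8 in whole control embryos (SD, n = 3). Their part in the mRp values was not tested.

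The lowest estimate in whole embryos was that of mRpL22, a protein of the exit tunnel wall in bacteria. Its intensities were 71.0, 72.5, 57.0 and 86.1 in whole gcm embryos and 108, 98.7 and 160.0 in whole control embryos, a change of -0.64 (SE 0.31, limma adjusted p = 0.453). The groups did not overlap, and whole control 4 was the highest. mRpS31, of mitochondria only, had 326, 254, 343 and 333 in whole gcm embryos and 487, 356 and 614 in whole control embryos, a change of -0.58 (SE 0.20, adjusted p = 0.210), again without overlap. mRpL17 (-0.54) and mRpS26 (-0.51) followed, also without overlap. The highest estimates were those of mRpS30 (0.47), mRpL39 (0.29), mRpS24 (0.28) and mRpL42 (0.19), all with overlapping groups as a whole. mRpS30 had 214, 393, 374 and 383 in whole gcm embryos and 187, 267 and 257 in whole control embryos, with whole gcm array 1 lying among the controls. Residuals of equally numbered whole gcm and whole control arrays correlated at 0.202 to 0.343, and those of unlike numbers at -0.287 to 0.290. The labels state no pairing, so pairs by number are an assumption. Within the 3 such pairs mRpS30 was higher in gcm by 0.18, 0.53 and 0.55 on the log2 scale and mRpL39 by 0.27, 0.11 and 0.25. With the replicate number as a block, the change was 0.40 for mRpS30 (limma adjusted p = 0.724) and 0.26 for mRpL39 (adjusted p = 0.761). Of the 64 genes, 3 (4.69%) were higher in gcm in every pair, against 18.1% of all probe sets, and 33 (51.6%) were lower in every pair, against 21.9%.

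**Figure D4:**
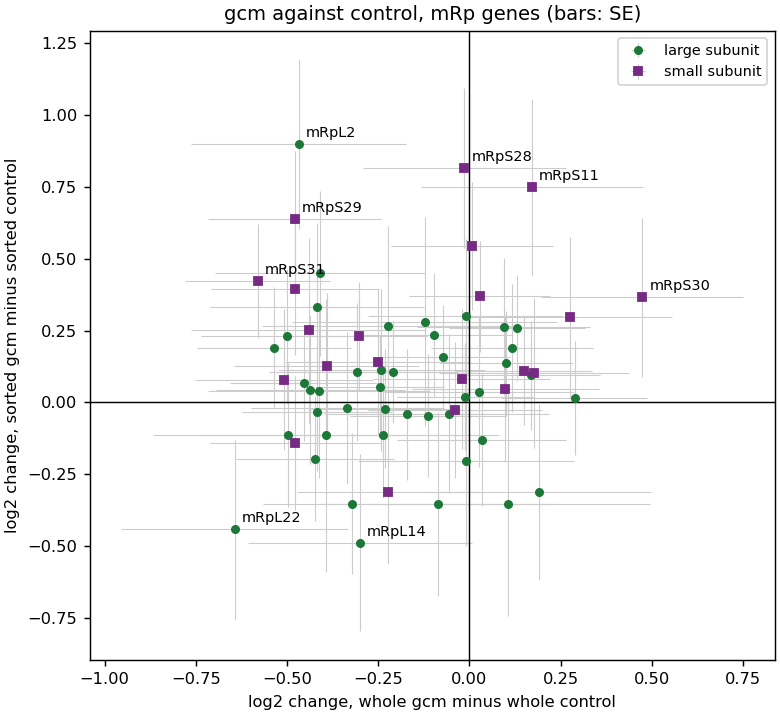
Log2 change of each mRp gene, gcm minus control, in sorted cells (vertical axis) against whole embryos (horizontal axis), with SE bars from limma on 14 arrays. Green circles are large-subunit and purple squares small-subunit genes; no gene passed the test on either axis.

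The effect of gcm in sorted cells minus that in whole embryos was tested as an interaction. No mRp gene was called by limma, against a background of 0.0286%, with 6 at an unadjusted p under 0.05 and 1468 of all probe sets. The median difference was 0.29, with 50 genes positive, beside 0.01 over all probe sets, and with all 15 arrays it was -0.35, against a background of 0.00716%. It was highest for mRpL2 (1.37, SE 0.42, adjusted p = 0.243), mRpS29 (1.12, SE 0.34, adjusted p = 0.242), mRpS31 (1.002, SE 0.28, adjusted p = 0.230) and mRpS35 (0.87, SE 0.32, adjusted p = 0.323). mRpS31 was the gene whose groups were apart in both preparations, above control in sorted gcm cells and below control in whole gcm embryos. The lowest differences were those of mRpL42 (-0.50), mRpL50 (-0.46), mRpL39 (-0.27) and mRpL16 (-0.27).

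The mRp genes varied together beyond the groups. After the group means were removed, the median correlation between pairs of mRp genes over the 14 arrays was 0.38. It was 0.62 among 37 genes listed by symbol as cytosolic ribosomal proteins. Among 72 genes listed for the respiratory chain it was 0.21 (0.32 without 18 that are named as like another subunit), and among all genes near 0 (0.000709). All pairs share the arrays and their normalisation, so these are descriptions of the arrays. The median SD of an mRp gene within a group was 0.28 in sorted gcm, 0.32 in sorted control, 0.20 in whole gcm and 0.34 in whole control.

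Genes of the mitochondrial ribosome that carry other symbols were low in sorted cells too. The gene tko, which encodes the small-subunit protein S12, had a mean level of 4.41 in sorted gcm and 4.27 in sorted control cells, against 7.03 in whole gcm and 7.48 in whole control embryos. It fell by 2.62 on the log2 scale in gcm (limma adjusted p = 5.30e-07) and by 3.21 in controls (adjusted p = 5.26e-08). The gene bonsai, for the S15 protein, fell by 2.01 (adjusted p = 5.11e-07) and by 2.77 (adjusted p = 1.40e-08). Of 37 genes listed by symbol as cytosolic ribosomal proteins, 31 fell and 1 rose in gcm (median -3.35). In controls 32 fell and 1 rose (median -3.46). This list was not trimmed and holds genes named as like another ribosomal protein. They are RpLP0-like (-2.49 in gcm, -3.12 in controls), RpL24-like (-1.79 and -1.82), RpL7-like (0.15 and -0.14) and RpL22-like (0.57 and 1.01). Among 72 genes of respiratory chain complexes and ATP synthase, 49 fell and 4 rose in gcm (median -2.30), and 52 fell and 2 rose in controls (median -2.61). The list was taken by symbol and holds 18 genes named as like another subunit, such as COX4L and SdhBL, whose median change was -0.13 in gcm and -0.16 in controls. Without them, a choice made after seeing the data, 48 of 54 fell in gcm (median -2.96) and 49 of 54 in controls (median -3.41). ATPsynF, a subunit of ATP synthase, fell by 5.47 and by 5.69, and COX8, of cytochrome oxidase, by 5.23 and by 5.35. In controls the quartiles of the mRp changes were -2.90 and -1.85, beside -4.17 and -2.01 for these 54 genes and -3.81 and -0.53 for all 72.

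The other machinery that expresses the mitochondrial genome had calls in both directions, as had all probe sets. Of 44 measured genes for mitochondrial translation factors, aminoacyl-tRNA synthetases, DNA and RNA maintenance and protein quality control, 12 fell and 9 rose in gcm (median 0.20), and 14 fell and 4 rose in controls (median -0.07). The genes that fell were 27.3% of the list in gcm and 31.8% in controls, against a background of 20.9% and 21.4%, and those that rose are to be read beside 24.7% and 24.9% of all probe sets. The list includes GlnRS, a synthetase of the cytosol, without which 12 fell and 8 rose in gcm and 14 fell and 3 rose in controls. Genes that fell in both included TFAM, which packages mitochondrial DNA (-1.90 in gcm, -1.99 in controls), mtSSB, which binds its single strands (-2.17 and -3.32), and scu, a subunit of mitochondrial RNase P (-2.27 and -2.57). mRRF1, the ribosome recycling factor, fell by 2.24 in gcm. Genes that rose, named after their values were seen, included PolG1, the mitochondrial DNA polymerase (0.94 in gcm, 0.53 in controls), and AspRS-m, an aminoacyl-tRNA synthetase (0.76 and 0.95). In this list too the change followed gene length, with a Spearman correlation of 0.56 in gcm and 0.62 in controls over 44 genes, whose median length was 2179.5 bp, more than that of the mRp genes. Over the 37 genes listed by symbol as cytosolic ribosomal proteins it was 0.08 in gcm and 0.10 in controls, at a median length of 1099 bp. In the gcm comparisons and the interaction, limma called 0 genes of these lists.

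**Figure D5:**
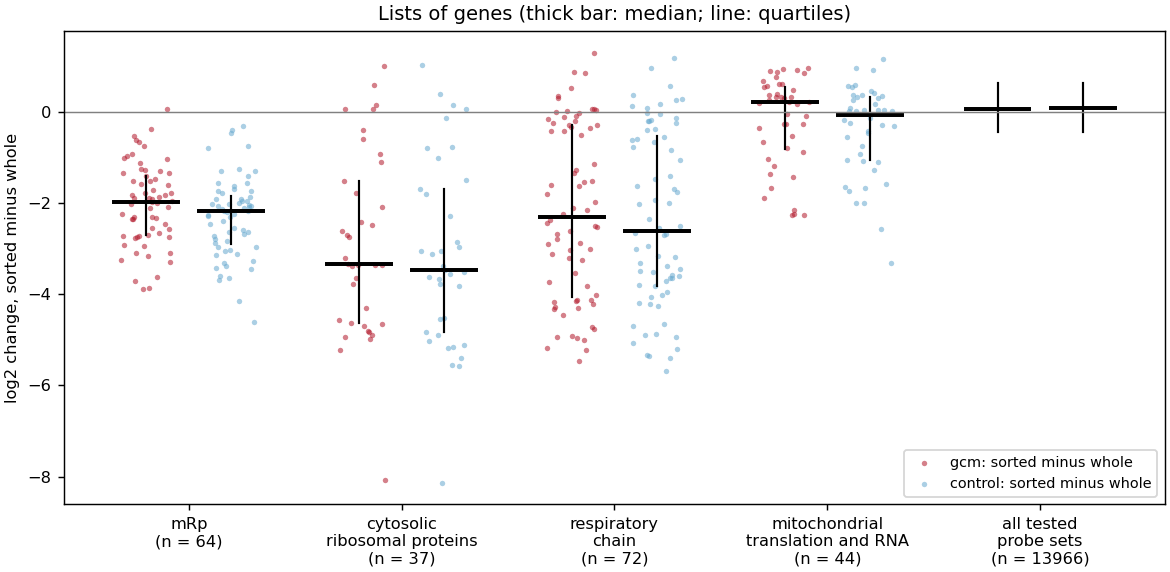
Log2 change, sorted minus whole, in gcm (red) and in controls (blue) for the mRp genes, 3 other gene lists and all tested probe sets. Points are genes, thick bars medians and thin lines quartiles; the mRp genes centre on -1.98 in gcm and -2.19 in controls, while the mitochondrial translation and RNA list centres on 0.20 and -0.07.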

How the data were processed

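Expression was read on 16 Affymetrix arrays in 4 groups. The deposited table gives 1 linear intensity per probe set and array, with 1 decimal, and the software and scaling behind these intensities are not given in the sources used here. Genes were named through the platform table, in which, without control probe sets, 12443 have 1 symbol, 327 have several and 1196 have none, and lengths and chromosome arms came from release 6. A probe set shared by CG34316 and mRpS10 was not counted as a member.

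All 14010 probe sets were quantile normalised, 16 was added and log2 was taken. Leaving out 44 control probe sets, 13966 were fitted with 1 mean per group in limma 3.58.1 (R 4.3.3), with a variance prior that follows intensity, two-sided tests and Benjamini-Hochberg adjustment over all of them. Dim probe sets were kept. The same steps were run on 15 arrays with the array labelled whole control 3. Pipelines were tested on simulated data, and figures were drawn with Python 3.11.15 and matplotlib 3.10.9.

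The mRp genes, the lists and the tests were chosen with earlier results of these data known. Named are the mRp genes called in a comparison, or the 12 with the smallest p, the 4 largest and 4 smallest changes in each of 5 comparisons, genes with several probe sets, and up to 6 called genes per other list. Residuals of equally numbered arrays correlated at 0.202 to 0.343 between whole gcm and whole control, and those numbers were taken as pairs. Unlike numbers gave -0.287 to 0.290, so the ranges overlapped, and the labels state no pairing. In the other comparisons at least 1 equally numbered pair was negative (lowest -0.0576). Alternatives were all 15 arrays, a pseudocount of 1 or 64, values as deposited, median centring, quantile normalisation within each preparation, array weights, a variance prior without trend, the dimmest 40% left out, a fit of only the compared groups, a block for the replicate number, each array left out in turn and averaging of a gene's probe sets. A planned search of promoters for motifs was not run, since no promoter sequence was used here.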

Additional observations from a re-analysis of the deposited data

Results flagged for a closer look

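In all, 73 sets of 4 arrays were examined for an array far from the other 3. They were the levels of 35 named mRp genes and the median mRp level, each in the groups with 4 arrays. The median was also examined over the 4 arrays labelled whole control, with whole control 3 kept. In 4 of the 73 sets the gap exceeded Dixon's limit, where chance alone flags about 1 in 20 groups. mRpS35 was at a level of 5.26 on sorted control array 4, against 6.15 to 6.25 on the other sorted control arrays. mRpL42 was at 8.04 on whole gcm array 1, against 8.79 to 8.89 on the other whole gcm arrays, and mRpS30 was at 7.85 on the same array, against 8.61 to 8.68. mRpS31 was at 8.08 on whole gcm array 2, against 8.42 to 8.49 on the others.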

How the results depend on the processing

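The counts of mRp genes called stayed within 1.5 times of the reported ones under all alternatives run, and were 0 throughout for gcm against control in sorted cells, in whole embryos and for their difference. With each array left out in turn, the count of mRp genes called was 58 to 61 in gcm and 59 to 62 in controls for sorted against whole, with medians of -2.02 to -1.93 and -2.27 to -2.03. For gcm against control the median ran from 0.03 (without sorted gcm 2) to 0.15 in sorted cells and from -0.32 (without whole control 2) to -0.01 (without whole control 4) in whole embryos, and the median difference from 0.12 (without whole control 4) to 0.38 (without whole control 2).

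With all 15 arrays the median turned to 0.39 for gcm in whole embryos and to -0.35 for the difference, and was -1.63 for sorted against whole controls; the added array carries sorted-like mRp levels. The sizes depended on the scale. For sorted against whole the medians were -2.33 in gcm and -2.68 in controls with a pseudocount of 1, -1.29 and -1.50 with 64, and -2.22 and -2.73 with the values as deposited. Median centring gave -2.10 in gcm. As deposited, the median difference was 0.53, where that over all probe sets was 0.24, and the median for gcm in whole embryos was -0.42, where that over all was -0.19; the cause was not tested. The count over all probe sets moved far more for gcm in whole embryos, from 62 to 8 with all 15 arrays and 1127 with array weights, and for gcm in sorted cells, from 108 to 17 with all 15 arrays. With the replicate number as a block, 0 genes were called for gcm in whole embryos, with medians of -0.22, and 59 or 60 in gcm and 60 in controls for sorted against whole, so the pairing changed no count by over 1.5 times.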
